A study of Macaca mulatta with 8 samples.

Results

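Newly formed oligodendrocytes are the cells between the dividing oligodendrocyte precursor and the myelinating oligodendrocyte. In a matrix of single nuclei from rhesus macaque brain they were taken as the nuclei with a count for at least 3 of 4 genes (BCAS1, ENPP6, GPR17 and TNS3), whose counts for these genes summed to at least 10 per 10000 counts of the nucleus. This rule found 1930 of 58220 nuclei, or 3.32% (exact 95% binomial interval 3.17 to 3.46%). The nuclei came from frozen tissue of male macaques and were read with 10x 3' version 3 chemistry, which counts RNA molecules by unique molecular identifiers (UMIs). The control tissue was a pool from 2 animals and the sevoflurane tissue came from 1 animal, and each was divided into 4 samples. The exposed animal breathed 2.5 to 3% sevoflurane, an anaesthetic gas, for 4 hours per session, first at about postnatal day 7 and again at 14 and 28 days, and the wording does not tell ages from intervals. The sample characteristics give hippocampus as the tissue and the growth protocol gives amygdala. No other genotype, allele or treatment is given for either group.

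Precursors divide, carry growth factor receptors and neurotransmitter receptors, and reach the next stage by leaving the cell cycle and switching on myelin genes. The cells in that passage are short-lived. BCAS1 marks the early myelinating process, ENPP6 is a choline phosphodiesterase, GPR17 is a receptor that is shut off before myelination, and TNS3 is an adaptor of focal adhesions. TCF7L2, a Wnt effector, and MYRF, the activator of myelin genes, act in the same window.

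All counts lay in 1 matrix of 8 libraries, known only by a number at the end of each barcode. No source used here says which sample a library is. The libraries therefore have no group, sevoflurane was not compared with control, and the matrix counts as 1 sample without replicates. No p-value is given. Levels are in CPM, the count of a gene per 1000000 counts summed over a class of nuclei. Intervals are exact 95% intervals that cover counting error only. The libraries held 5234 to 9681 nuclei each, with median depths of 3189 to 6326 UMIs per nucleus, and 429 barcode sequences occurred in more than 1 library. Libraries 5 to 8 stood apart from libraries 1 to 4 in depth (6078 to 6326 against 3189 to 3426 UMIs), so values are also given with libraries 1 to 4 alone where that matters.

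The share of newly formed oligodendrocytes differed widely between libraries. It was 2.61% (210 nuclei), 2.21% (181), 6.75% (653) and 7.42% (712) in libraries 1 to 4, and 0.790% (46), 0.799% (48), 0.729% (41) and 0.745% (39) in libraries 5 to 8. Libraries 3 and 4 were the highest, and libraries 5 to 8 lay within each other's counting intervals. Because the rule needs 3 genes to be seen, the count was repeated with each nucleus thinned to 1500 UMIs, which left out 5885 shallower nuclei. The share then was 2.15% (2.03 to 2.28%) against 3.64% in the same nuclei before thinning. After thinning the libraries ran from 0.283% in library 5 to 4.80% in library 3, and libraries 3 and 4 remained above the others. With libraries 1 to 4 alone the share was 4.94%.

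Within the oligodendrocyte lineage the newly formed class took a much narrower range. Precursors (3588 nuclei) and mature oligodendrocytes (3371 nuclei) were defined by panels of other genes: CSPG4, VCAN, MEGF11, COL9A1 and PCDH15 for precursors, and MOG, OPALIN, ASPA, CNDP1 and ERMN for mature cells. Newly formed nuclei were 21.7% (20.9 to 22.6%) of the 8889 nuclei in these 3 classes. By library the figure was 20, 17.3, 22.5, 24.2, 20.3, 18.1, 18.4 and 17% for libraries 1 to 8. The mature share of the lineage varied far more, from 31.3 to 46.9% in libraries 1 to 4 and from 6.79 to 10.0% in libraries 5 to 8. Precursors made up 30.6 to 51.4% of the lineage in libraries 1 to 4 and 70.0 to 75.1% in libraries 5 to 8. Part of the precursor class in libraries 5 to 8 had little of the precursor genes LHFPL3 and TNR, as given with the comparison against precursors. Without such nuclei the newly formed share of the lineage was 20.8, 18.2, 22.8, 24.4, 27.7, 24.5, 25.5 and 21.1% for libraries 1 to 8, and library 5 was then the highest in place of library 4.

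**Figure D1:**
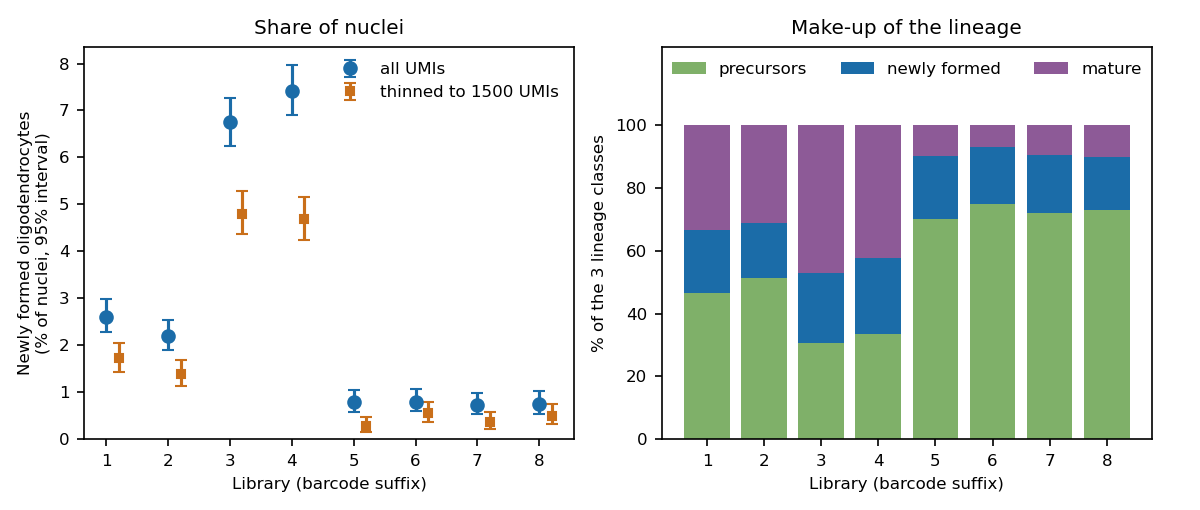
Left, newly formed oligodendrocytes as a percentage of nuclei in each library (x axis: barcode number), with all UMIs (circles) and after thinning each nucleus to 1500 UMIs (squares), with exact 95% binomial intervals. Right, the 3 lineage classes as stacked percentages of their sum in each library. The share of nuclei runs from 0.729 to 7.42%, while the newly formed share of the lineage runs from 17 to 24.2%.

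The 4 genes of the rule are described without reading a difference from them, since they chose the nuclei. BCAS1 stood at 4097 CPM in newly formed nuclei, 444 in precursors, 390.4 in mature cells and 12.3 in nuclei of the excitatory neuron panel. TNS3 stood at 2067, 356, 338 and 24.8 CPM in the same classes, ENPP6 at 652, 19.0, 23.1 and 2.79, and GPR17 at 130 CPM, 11.6, 7.83 and 0.895. BCAS1 and TNS3 had a UMI in 99.6% of the chosen nuclei each, ENPP6 in 84.4% and GPR17 in 43.8%. In excitatory panel nuclei, with a median of 8768 UMIs against 3930.5, the shares were 8.74% for BCAS1, 14.8% for TNS3, 2.37% for ENPP6 and 0.820% for GPR17. The commonest combination was BCAS1 with ENPP6 and TNS3 (1084 nuclei), followed by all 4 genes (530), BCAS1 with GPR17 and TNS3 (301), and 2 rare combinations of 8 and 7 nuclei.

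The summed level of the 4 genes ran from the limit of 10 per 10000 to 205, with a median of 70.4 and quartiles of 22.3 and 114. Genes that the rule did not use changed along this range. FYN, a kinase needed for myelination, stood at 541 CPM in the 412 nuclei with a sum of 10 to 20, at 999 CPM between 20 and 40, at 2725 CPM between 40 and 80 and at 4504 CPM in the 883 nuclei at 80 or more. TCF7L2 stood at 38.1, 100.4, 236 and 228 CPM over the same 4 ranges, and TMEM163, a zinc transporter, at 282, 635, 1563 and 1399.7 CPM. RRAS2, another gene of the premyelinating stage, went a different way, with 347, 584, 869 and 319 CPM, so it was lowest in the highest range and there below its level in mature cells (479 CPM). The lowest range held FYN near its level in precursors (489.6 CPM) and mature cells (375 CPM). MBP, myelin basic protein, was instead at 6943 CPM in the lowest range and 3933 CPM in the highest.

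Mature-panel passes, high doublet scores, SLC1A2 and SYT1 were more frequent or higher below a sum of 80 than above it. Nuclei with the precursor panel and not the mature one went the other way, at 43.2, 54.7, 61.9 and 86.5% over the 4 ranges. The mature panel was passed by 36.2, 19.4, 5.40 and 0.453% of nuclei over the 4 ranges, and a high simulated doublet score was found in 15.5, 17.5, 14.9 and 2.60%. SLC1A2, an astrocyte glutamate transporter, stood at 853, 836, 429 and 198 CPM, and the neuronal gene SYT1 at 900.4, 1092, 743 and 575 CPM. Doublet scores and SYT1 thus were highest in the range of 20 to 40. The part of such nuclei in the low levels of FYN and TCF7L2 was not tested. Just inside the threshold (sums of 10 to 12, 80 nuclei) FYN was at 454 CPM and TCF7L2 at 32.2 CPM, and just outside it (8 to 10, 84 nuclei) they were at 511 and 24.3 CPM. FYN, TCF7L2 and TMEM163 thus stood above the neighbouring classes in nuclei with larger sums, and in the 21.3% with sums under 20 FYN, TCF7L2 and TMEM163 lay closer to those classes. By library, the share of newly formed nuclei with sums of at least 40 was 60.8 to 64.6% in libraries 1 to 4, and 45.7, 70.8, 51.2 and 56.4% in libraries 5 to 8.

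**Figure D2:**
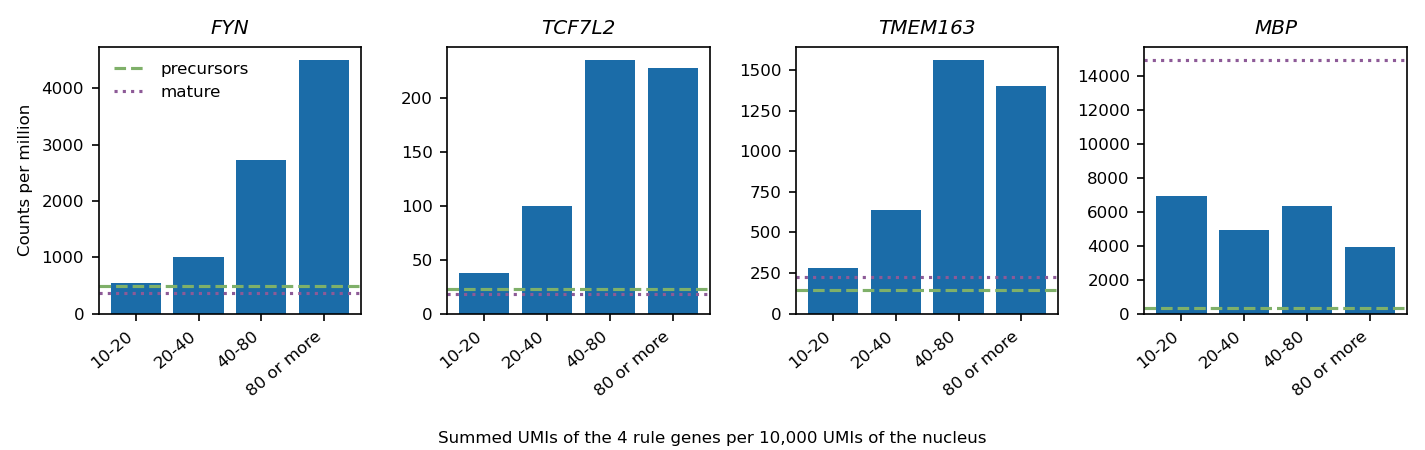
CPM of FYN, TCF7L2, TMEM163 and MBP (y axes start at 0) in newly formed nuclei sorted by the summed UMIs of the 4 rule genes per 10000 UMIs (x axis), with the precursor level as a dashed line and the mature level as a dotted line. FYN climbs from 541 to 4504 CPM, and TCF7L2 and TMEM163 are near the neighbour levels only in the lowest range.

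Panel sums of other lineages were below those of the nuclei that pass these panels. The astrocyte panel was passed by 150 newly formed nuclei (7.77%), the microglia panel by 17, the excitatory panel by 11, the ependymal panel by 9, the immature neuron panel by 6, the inhibitory panel by 5, the endothelial panel by 2 and the mural panel by 0. The 6 astrocyte genes summed to 833 CPM, against 694 CPM in precursors, 332 CPM in mature cells and 8092 CPM in nuclei of that panel, and 5 of the 6 stood above both neighbour classes. Their part in the differences was not tested, and without newly formed nuclei that pass another lineage's panel 509 genes were higher and 1259 lower than in precursors, 843 higher and 605 lower than in mature cells, and 173 above both, by the rule given with each comparison. Excitatory, inhibitory and immature neuron genes summed to 188, 204 and 174 CPM, against 1380, 1697 and 1366 CPM in nuclei of those panels. Ependymal genes summed to 175 against 5966 CPM, and endothelial genes to 95.6 against 6643 CPM. Microglia genes summed to 70.4 against 3159 CPM, and mural genes to 26.5 against 2444 CPM. Of the microglia genes 3 stood above both neighbour classes, and of the mural genes 2. Single panel genes under 1 CPM in newly formed nuclei were CD74, SLC32A1, DLX6, NEUROD1, EOMES, COL1A1 and BUB1. The cycling panel (MKI67, TOP2A, CENPF, ASPM, BUB1 and CENPE) summed to 16.1 CPM in newly formed nuclei, 81.9 CPM in precursors and 12.3 CPM in mature cells. It was passed by 2 of 1930 newly formed nuclei and by 63 of 3588 precursors. The doublet score was high in 9.84% of newly formed nuclei, 7.92% of precursors and 7.09% of mature cells, against 6.14% of all nuclei. High means the top-scored 4.18 to 7.75% of the nuclei of a library. This share was fixed by the size of the library and was largest in libraries 3 and 4.

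Against precursors, newly formed oligodendrocytes were higher in genes of the premyelinating stage and of myelin and lower in neurotransmitter receptors and ion channels. A gene was called when it was at least 2-fold different, reached 10 CPM in either class and kept 1 direction in each library that held 50 or more nuclei of both classes, which were libraries 1 to 4. Genes that defined a class were never called. Precursors could not pass the mature panel, while 232 newly formed nuclei did, and the part of this choice in the list counts was not tested. Of 9577 genes, 462 (4.82%) were called higher and 888 (9.27%) lower in the newly formed class (14.1% in all), and the median log2 ratio over all genes was -0.15. With TMM scaling, which centres the bulk of genes, the split was 580 higher and 624 lower and the median moved to 0.01. With the 8 libraries given equal weight it was 382 and 404. The precursor class contained 394 nuclei (11%) with little LHFPL3 and TNR and with 936 CPM of the neuronal gene RBFOX3, against 172 CPM in the other precursors. OLIG2 stood at 1.73 CPM in them against 49.0 CPM, and SOX10 at 23.2 against 121 CPM. Their median depth was 6416.5 UMIs against 2804.5, so they weigh more in the summed precursor levels than their number shows. Such nuclei were 2.94 to 9.67% of precursors in libraries 1 to 4 and 26.3 to 38.5% in libraries 5 to 8. Without them the genes lower in newly formed nuclei fell from 888 to 626, of which 504 were shared, and the genes higher were 445, of which 407 were shared.

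Genes of the premyelinating stage were higher than in precursors in 12 of the 14 measured (median log2 ratio 1.90), and none was lower. The lists were chosen with earlier results of these data known, so list counts here and below are descriptions. FYN stood at 2670.1 CPM (2637 to 2704) in newly formed nuclei and 489.6 CPM in precursors, 5.45-fold higher (5.31 to 5.60). Its level by library ran from 1472 to 2877 CPM (median 2241) in newly formed nuclei and from 362 to 596 CPM (median 411) in precursors. The libraries of the 2 classes did not overlap. MYRF, the transcription factor that turns on myelin genes, was 12.5-fold higher (259 against 20.8 CPM). TCF7L2 was 7.16-fold higher (163 against 22.8 CPM), with 57.5 to 189 CPM by library in newly formed nuclei and 8.51 to 28.2 CPM in precursors. TMEM163 was 7.22-fold higher (1035 against 143 CPM), SIRT2, a tubulin deacetylase of oligodendrocytes, 6.52-fold, RRAS2 6.06-fold and BMP4 4.48-fold. ITPR2 was 2.39-fold higher, NEU4 2.16-fold and PLEKHA1 2.01-fold. The calls for ITPR2, NEU4 and PLEKHA1 ended under several other settings, with log2 ratios down to 0.58 for ITPR2 and NEU4 and 0.68 for PLEKHA1. CEMIP2 (1.89-fold) and SNX22 (1.92-fold) were below the 2-fold limit. SOX11 and SOX17 had too few counts for a ratio.

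Myelin genes were higher than in precursors in 12 of 19 measured (median log2 ratio 1.46), and none was lower. MBP rose most among them, at 5185 CPM (5139 to 5232) against 365 CPM, or 14.2-fold (13.8 to 14.6). By library MBP ran from 1923 to 6709 CPM in newly formed nuclei and from 76.6 to 636 CPM in precursors, with no overlap. TF, which encodes transferrin, was 7.01-fold higher (272 against 38.8 CPM) and CLDN11, the tight junction protein of myelin, 4.52-fold (877 against 194 CPM). The part of free RNA in the myelin levels was not tested library by library.

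Genes of cholesterol and fatty acid synthesis were higher than in precursors in 5 of 19 (median log2 ratio 0.85), and none was lower. These were IDI1 (3.46-fold, 106 against 30.7 CPM), FDFT1 (3.07-fold), HMGCS1 (2.91-fold), MSMO1 and INSIG1, a regulator of the pathway that is not an enzyme. IDI1 and HMGCS1 act in the mevalonate part of the pathway, and FDFT1 makes squalene. SCD5, a fatty acid desaturase, was at 598 CPM against 716 CPM and was not called.

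Neurotransmitter receptors and ion channels went the other way, with 19 of 37 lower, 1 higher and a median log2 ratio of -1.0. This list was not counted again without the 394 precursors of little LHFPL3 and TNR, so their part in it was not tested. CACNA1C, a calcium channel, was at 269 CPM, 3.09-fold lower than in precursors. GRM7, a metabotropic glutamate receptor, was at 334 CPM against 1014 CPM, 3.03-fold lower, and GRIN1 at 7.00 CPM against 27.6 CPM, 3.94-fold lower. GRIN1 and several other genes of strong fall (DLGAP3, ZNF831, TCERG1L and TESC) lost their call when the neighbour classes needed panel sums of 20, with log2 ratios of -0.24 to -0.82. LPAR1, a lysophosphatidic acid receptor of oligodendrocytes, was the gene higher in this list (6.84-fold, 352 against 51.4 CPM). The AMPA receptor subunit GRIA2 was at 2673 CPM against 1407 CPM, 1.90-fold higher, and was not called.

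Growth factor signalling and surface genes of precursors were mixed, with 3 of 20 higher and 4 lower (median log2 ratio -0.39). FGFR2 was 6.88-fold higher (321 against 46.6 CPM), SOX6 2.57-fold and ERBB3, a neuregulin receptor, 2.07-fold. The ERBB3 call ended under 7 settings. SPRY4, a feedback inhibitor of growth factor signalling, was 4.69-fold lower (14.4 against 67.7 CPM), NTRK3 2.73-fold lower and EGFR 2.18-fold lower, and NCAN was the other gene lower. The EGFR call ended with TMM, with equal library weights and without library 3 or library 4, at log2 ratios of -0.97 to -0.64, and the NTRK3 call ended with equal weights (-0.86). Of 23 transcription factors of the lineage, 5 were higher (ST18, E2F3, ZEB2, NKX2-2 and PRRX1) and 1 lower (THRB), whose call ended under 4 settings, without library 4 among them (log2 ratios of -0.91 to -0.78). ST18 was 4.26-fold higher (247 against 58.0 CPM) and E2F3 3.64-fold (287 against 78.7 CPM). Of 19 genes of Wnt, Notch and BMP signalling, DAAM2 was higher (4.41-fold) and APCDD1, LGR5, NOTCH1 and JAG2 were lower. The JAG2 call ended under 7 settings (log2 ratios up to -0.22), the LGR5 call under 2 and the APCDD1 call under 1. Adhesion and guidance genes were higher in 8 of 31 and lower in 5, with SEMA4D 7.25-fold higher (610.4 against 84.2 CPM), NFASC 4.55-fold higher and PLXNA4 3.11-fold lower. The PLXNA4 call ended under 2 settings (log2 ratios of -0.85 and -0.82). Cytoskeletal genes were higher in 6 of 30, among them GSN (5.83-fold), ANLN (5.74-fold) and the kinesin KIF21A (3.01-fold). ANLN stood at 19.0 CPM in precursors, 20.7 CPM in the newly formed nuclei that pass the precursor panel, 122 CPM in those that pass neither panel and 600.1 CPM in those that pass the mature panel. With all 4 marker genes required the ANLN and GSN calls ended, at log2 ratios of 0.22 and 0.91, and the ANLN call also ended with marker sums of 20 (1.34). Of 10 survival and stress genes only BCL2 was called, at 52.4 CPM against 121 CPM, and its call ended under 3 settings, without library 4 among them (log2 ratios of -0.97 to -0.35). The dividing-cell gene TOP2A was 5.66-fold lower (4.27 against 24.1 CPM).

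Among all genes with a symbol and at least 20 CPM, the highest ratios over precursors were RAB7B (35.3-fold, 19.4 to 71.6), BFSP2 (32.9-fold), CDK18 (25.7-fold), ADAM33 (21.6-fold), OLFML2A (20.8-fold), SLC17A8 (18.3-fold), CPM, which encodes carboxypeptidase M (17.4-fold), and DOCK6 (16.4-fold). CDK18, a cyclin-dependent kinase of oligodendrocyte differentiation, stood at 196 CPM against 7.62 CPM. DOCK6 was at 148 CPM (139.8 to 156) against 8.98 CPM.

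Against mature oligodendrocytes, newly formed nuclei kept precursor surface genes and receptors at higher levels and held less myelin RNA. This comparison uses the same newly formed nuclei as the one with precursors. Mature nuclei could not pass the precursor panel, while 1342 newly formed nuclei did. The part of this choice in the list counts was not tested. Of 9214 genes, 1009 (11%) were called higher and 570 (6.19%) lower (17.1% in all), and the median log2 ratio was -0.02. Without newly formed nuclei that pass either panel, 1072 were higher and 621 lower, of which 649 and 426 were shared. Only 2 libraries could be compared there. The mature class had only 18 to 23 nuclei in each of libraries 5 to 8, so the rule on libraries again rested on libraries 1 to 4.

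Precursor surface and growth factor genes were higher than in mature cells in 13 of 19 (median log2 ratio 2.02), and none was lower. TNR, an extracellular matrix protein, stood at 3343 CPM against 77.9 CPM, 42.9-fold higher. SOX6 was 20.8-fold higher (3085 against 148 CPM) and LHFPL3 13.8-fold (3550.4 against 257 CPM). Receptors and channels were higher in 14 of 35 and lower in 4. GRIA4, an AMPA receptor subunit, was 14.6-fold higher (1126 against 76.9 CPM), CACNA1A 5.83-fold and GRIA2 5.32-fold. GPR37 was 5.33-fold lower (31.3 against 167 CPM), GRM3 2.66-fold lower and KCNH8 2.45-fold lower. The GRM3 call ended without newly formed nuclei that pass the precursor or mature panel (log2 ratio -0.98).

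Myelin genes were lower than in mature cells in 10 of 19 (median log2 ratio -1.01), and none was higher. MAL, a proteolipid of compact myelin, was 6.99-fold lower (56.5 against 395 CPM) and ENPP2 4.98-fold lower (160.4 against 798 CPM). MBP was 2.88-fold lower (5185 against 14939.8 CPM). By library MBP ran from 7945 to 15741 CPM in mature cells, all above the newly formed class. The MBP call ended without newly formed nuclei that pass the precursor or mature panel, at a log2 ratio of -0.67. MYRF did not differ by 2-fold from mature cells (259 against 266 CPM, ratio 0.976 with interval 0.926 to 1.03), nor did RRAS2 (467 against 479 CPM, ratio 0.976). Of 20 cholesterol and fatty acid genes, 3 were lower (INSIG1 and IDI1 among them) and none higher, so IDI1 lay between its 2 neighbours at 30.7, 106 and 217 CPM. The IDI1 call against mature cells ended under 5 settings.

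Transcription factors were divided against mature cells, with 6 of 23 higher and 5 lower. PRRX1 was 32.1-fold higher (38.1 against 1.19 CPM), NKX2-2 5.51-fold and THRB 2.81-fold, with E2F3, SOX8 and RXRA also higher. CREB5 was 5.97-fold lower (189 against 1130.4 CPM), ZNF536 4.62-fold lower, NKX6-2 3.55-fold lower, and ST18 and KLF9 were the others. ST18 thus was above precursors and below mature cells. Wnt, Notch and BMP genes were higher in 7 of 15, with NKD1 5.56-fold, APCDD1 4.31-fold and RNF43 4.00-fold higher, and DAAM2 was lower. NKD1, APCDD1 and RNF43 are known feedback inhibitors of Wnt signalling. Without panel-passing nuclei the APCDD1 call ended (log2 ratio 0.64), and the RNF43 call ended under 3 settings (0.96 to 2.00). The calls for THRB (0.77) and PRRX1 (2.35) also ended without panel-passing nuclei. Adhesion and guidance genes were higher in 11 of 30 and lower in 4. NTN1, the guidance cue netrin, was 26.7-fold higher (336 against 12.6 CPM) and the netrin receptors UNC5C and UNC5B were 5.50-fold and 5.29-fold lower. Cytoskeletal genes were higher in 4 of 30 (MAP2, KIF21A, MAP1B and MARCKS) and lower in 9, among them GSN and MAP7. The survival genes BOK and BCL2L1 were lower and none of the 12 was higher. The BCL2L1 call ended without panel-passing nuclei (log2 ratio -0.72).

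**Figure D3:**
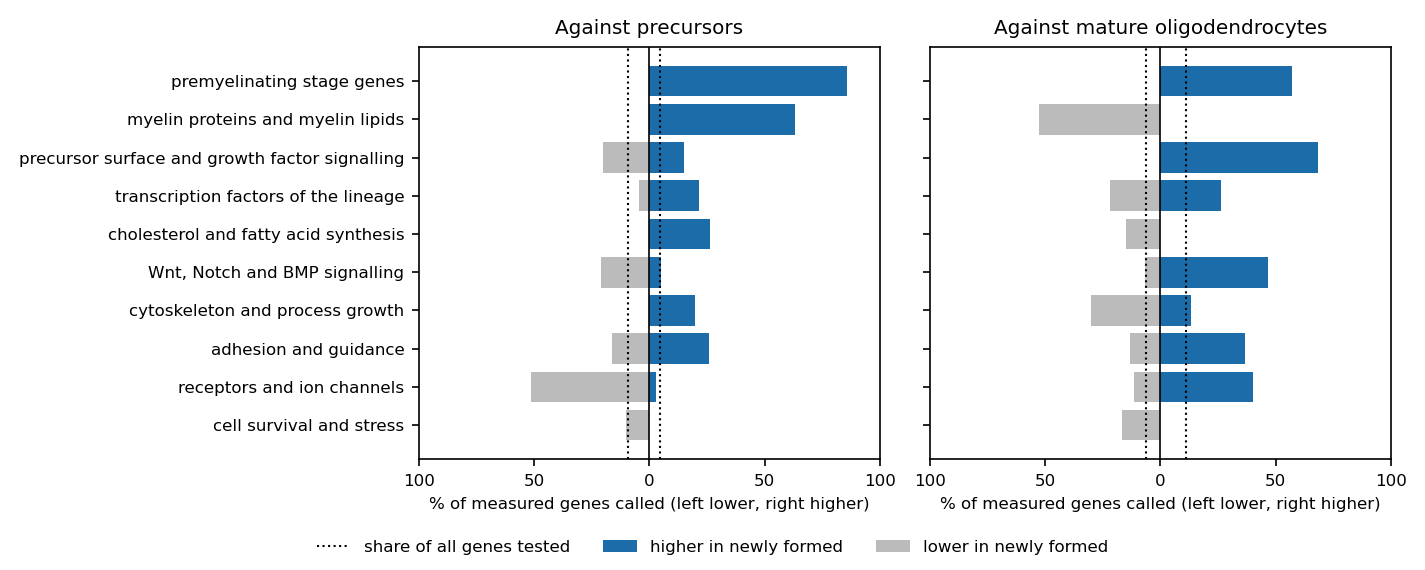
For each of 10 gene lists, the percentage of measured genes called higher (right of 0) or lower (left of 0) in newly formed oligodendrocytes, against precursors in the left plot and mature cells in the right plot. Dotted lines mark the same shares over all genes tested, 4.82 and 9.27% on the left and 11 and 6.19% on the right. Stage genes extend to the right in both plots, while myelin genes extend to the right against precursors and to the left against mature cells.

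Some genes were higher in newly formed oligodendrocytes than in either neighbour: 154 of 9833 genes (1.57%) were at least 2-fold above the higher of the 2 classes, and 4 (0.0407%) were below the lower one. The median log2 ratio to whichever class was nearer in level, over all genes, was -0.005. Stage genes held 7 of these among 14 measured (TCF7L2, FYN, TMEM163, BMP4, MPZL1, SOX4 and NEU4), with a median of 1.03. The NEU4 call ended under 6 settings (log2 ratios of 0.58 to 0.93). The MPZL1 call ended with all 4 markers (0.96) and the SOX4 call with neighbour panel sums of 20 (0.99). The other lists gave 1 of 20 precursor surface genes (SOX6), 3 of 24 transcription factors (E2F3, NKX2-2 and PRRX1), 1 of 30 cytoskeletal genes (KIF21A) and 5 of 31 adhesion genes (EPHB1, SEMA6D, SEMA5A, CADM1 and CADM2). The myelin, cholesterol, Wnt, receptor and survival lists gave none. With equal library weights the SEMA6D call ended (log2 ratio 0.79).

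BFSP2, known as a lens filament protein, had the highest ratio, with 116 CPM (109 to 123) against 3.52 CPM in precursors and 1.42 CPM in mature cells, 32.9-fold above the higher class. By library BFSP2 ran from 75.2 to 158 CPM in newly formed nuclei, from 1.06 to 4.92 CPM in precursors and from 0 to 4.22 CPM in mature cells. TMEM108, its neighbour on the chromosome, stood at 6563 CPM against 567 and 171 CPM, 11.6-fold above, and ran from 2914 to 7149 CPM by library in newly formed nuclei and no higher than 658 CPM in precursors. For both genes every newly formed library lay above every library of the neighbour classes. SLC17A8, a vesicular glutamate transporter, was 18.3-fold above (36.7 against 2.01 and 0.949 CPM), OLFML2A 14.9-fold, ADAM33 14.3-fold and RGR, an opsin of the retina, 12.8-fold. DNAH10, IL17D, CCDC7 and EPB41L2 followed at 8.48, 8.15, 8.11 and 7.56-fold. In the gene order of the reference table, 148 of the 154 genes could be placed and 11 pairs were direct neighbours, among them TMEM108 with BFSP2 and PRPF18 with FRMD4A. Whether counts of such neighbours are independent was not tested. These pairs were looked up after the calls were seen.

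FYN was 5.45-fold and TMEM163 4.61-fold above the higher class, and EPHB1, an ephrin receptor, 3.78-fold. By library EPHB1 ran from 468 to 680.0 CPM in newly formed nuclei, from 108 to 176 CPM in precursors and from 18.9 to 79.1 CPM in mature cells. KIF21A was 3.01-fold, E2F3 2.78-fold, SOX6 2.57-fold, SEMA5A 2.17-fold and CADM2 2.13-fold above. CADM2, an adhesion molecule, ran from 6145 to 9909 CPM in newly formed nuclei and from 4112 to 4651 CPM in precursors, without overlap. SOX6 ran from 1328 to 3491 CPM in newly formed nuclei and from 510.4 to 1632 CPM in precursors, so these libraries overlapped. In libraries 5 to 8 newly formed SOX6 was 1328 to 1661 CPM and in libraries 1 to 4 it was 3054 to 3491 CPM. The calls for NKX2-2, PRRX1 and SEMA5A ended under 3, 6 and 5 settings, with neighbour panel sums of 20 among them for each. For these genes the direction turned without the nuclei that pass the precursor or mature panel. Their log2 ratios to the higher class were -0.06, -1.53 and -0.03 there. SOX6 lost its call without those nuclei too (0.31) and with neighbour panel sums of 20 (0.84), and CADM2 lost it without them (0.96) and with equal library weights (0.90). SLC17A8 and BMP4 lost their calls without them as well, with log2 ratios of 2.26 and 0.19. The genes below both classes were CDC42EP3, OVCH1, AIF1L and MMS22L, of which AIF1L and MMS22L were named after their values were seen. CDC42EP3 was at 11.7 CPM against 24.1 and 24.5 CPM, and its call ended under 10 settings. OVCH1 was at 11.3 CPM against 30.3 and 25.6 CPM, and its call ended under 11 settings.

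**Figure D4:**
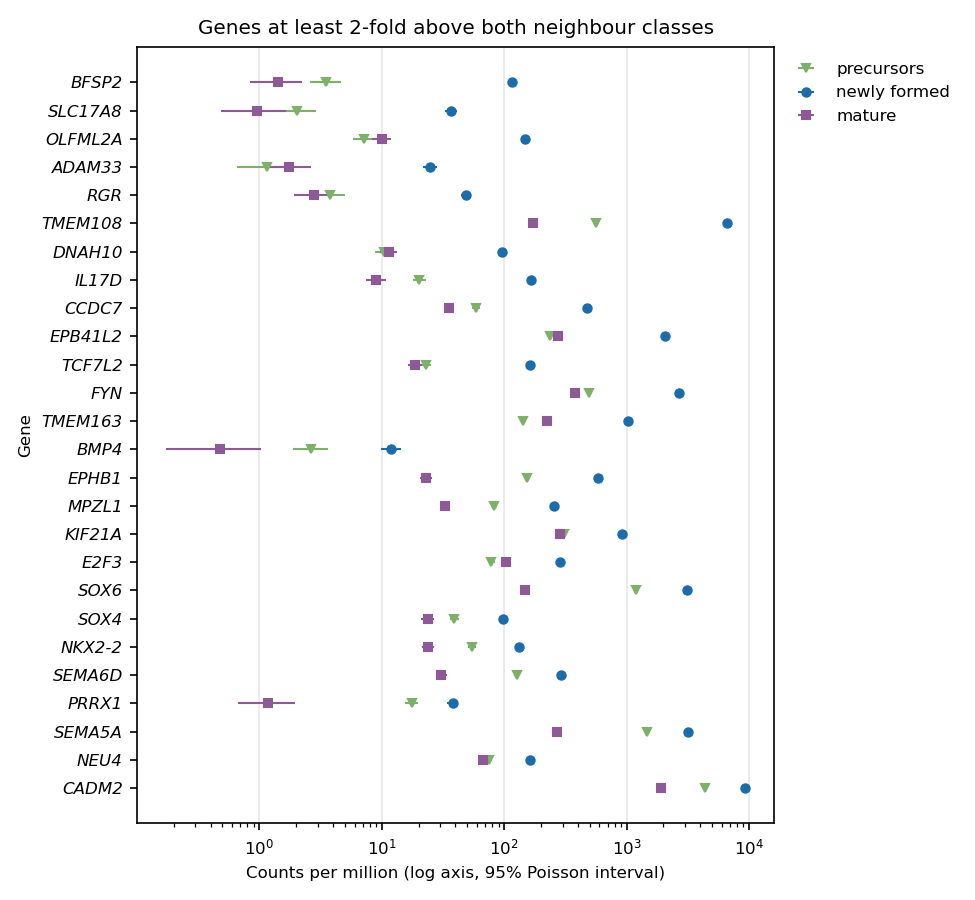
CPM (log axis) of named genes at least 2-fold above both neighbour classes, in newly formed oligodendrocytes (circles), precursors (triangles) and mature cells (squares), with exact 95% Poisson intervals. BFSP2 shows the widest gap (116 against 3.52 and 1.42 CPM) and CADM2 the narrowest (9295 against 4354 and 1901 CPM).

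The class was not uniform. Of its nuclei, 1312 (68.0%) passed the precursor panel and not the mature one, 386 (20%) passed neither, and 232 (12%) passed the mature panel, 30 of them with the precursor panel too. Libraries 1 to 4 had 61.7 to 79.0% in the first portion and 16.2 to 21.6% with neither panel, and libraries 5 to 8 had 63.0 to 75.6% and 24.4 to 37.0%. Median depths were 3887, 4146.5 and 3880 UMIs in the 3 portions, and high doublet scores were found in 7.70, 11.7 and 19.0%. The panel limits cut through a range: 92 nuclei had a precursor panel sum of 8 to 12 per 10000 and 100 a mature panel sum of 8 to 12. The panels set the order of the 5 steps from precursors to mature cells, so only genes outside the panels and the rule are read along it.

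The 14 measured stage genes reached their highest level inside the newly formed class, 5 in the precursor-panel portion and 9 in the portion with neither panel. RRAS2, a small GTPase, stood at 77.0 CPM in precursors, 203 CPM with the precursor panel, 1262 CPM with neither panel, 511 CPM with the mature panel and 479 CPM in mature cells. ITPR2, a calcium release channel, stood at 265, 403, 1380.0, 569 and 422 CPM over the same steps. Both genes were highest in the portion with neither panel, while RRAS2 over the whole class stood at 467 CPM. TCF7L2 stood at 22.8, 148, 267, 53.6 and 18.7 CPM, TMEM163 at 143, 883, 1824, 436 and 225 CPM, and CEMIP2 at 39.7, 34.1, 204, 68.9 and 84.0 CPM. FYN reached its highest level earlier, at 489.6, 3156, 2199, 716 and 375 CPM. SNX22 stood at 59.2, 159, 20.2, 22.0 and 3.8 CPM, and BMP4 at 2.66, 16.3, 3.03, 2.87 and 0.475 CPM.

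Over all 10 lists together 113 of 228 genes had their highest level in 1 of these 3 portions, 69 in precursors and 46 in mature cells. The counts were 17 of 20 for cholesterol and fatty acid genes, 20 of 30 for cytoskeletal genes and 16 of 31 for adhesion genes. They were 12 of 25 for transcription factors, 5 of 12 for survival genes and 8 of 20 for precursor surface genes. Myelin genes had 7 of 20, Wnt, Notch and BMP genes 6 of 19, and receptors and channels 8 of 37. The portions are 3 of the 5 steps, and no share over all measured genes was taken. Of 20 myelin genes, 13 were highest in mature cells and 6 in the mature-panel portion, and 8 rose at every step, as did 23 of all 228. MBP stood at 365, 2521, 9364, 12881 and 14939.8 CPM. MAL, at 22.5, 19.1, 49.5, 289 and 395 CPM, had its main change later, between the portion with neither panel and the one with the mature panel. Of 20 cholesterol and fatty acid genes, 11 were highest in the mature-panel portion, against 35 of all 228. HMGCS1 there stood at 228 CPM, against 161 CPM with neither panel and 162 CPM in mature cells. Of 37 receptors and channels, 25 were highest in precursors and 13 fell at every step, as did 26 of all 228. GRIA2 and GRIA4 did not follow these: GRIA2 stood at 1407, 3512, 1085, 765 and 502 CPM, and GRIA4 at 616, 1516, 386, 237 and 76.9 CPM, both highest in the precursor-panel portion. SOX6 (1202, 4024, 1496, 593 and 148 CPM) and NKX2-2 (54.3, 169.9, 52.1, 53.6 and 23.8 CPM) had the same order at their top. High doublet scores also rose over the 3 portions, and their part in the levels of the mature-panel portion was not tested.

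**Figure D5:**
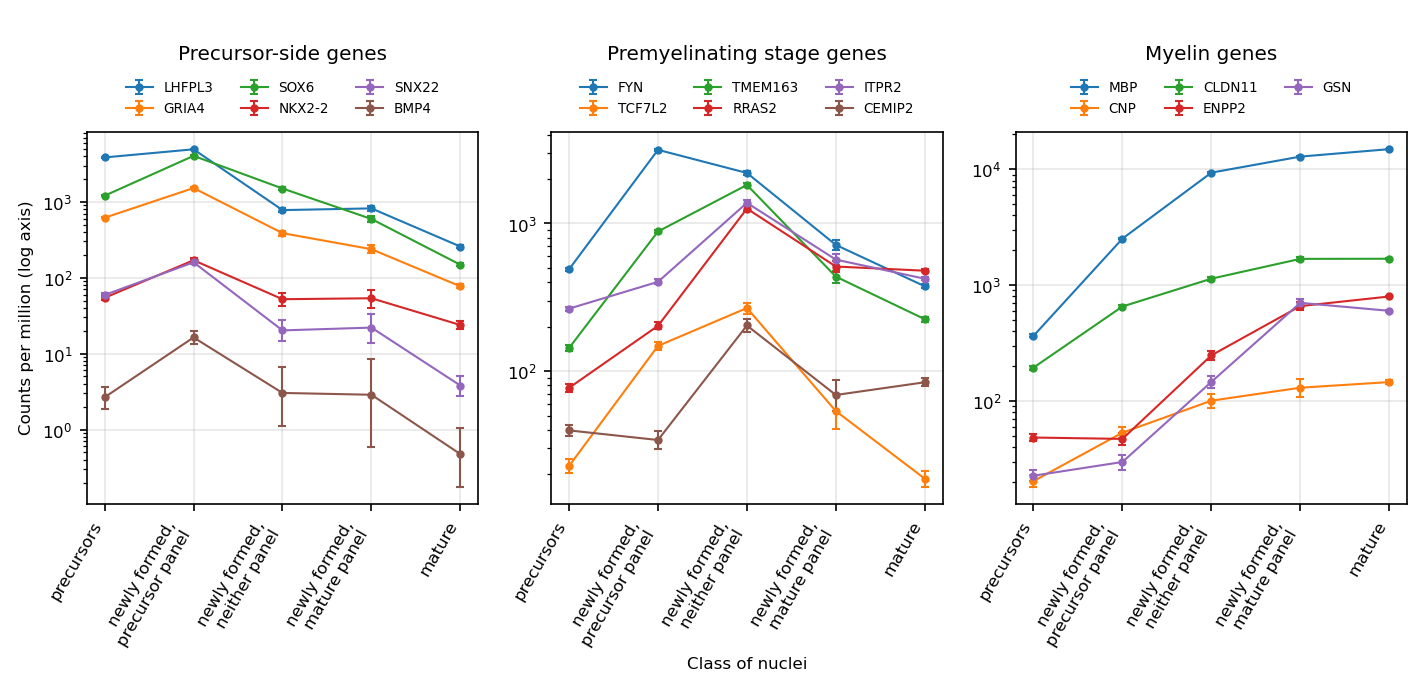
CPM (log axis) over 5 classes (x axis), from precursors through 3 portions of the newly formed class to mature cells, with exact 95% Poisson intervals. Left, genes of the precursor side peak in the precursor-panel portion (SOX6 at 4024 CPM). Middle, RRAS2 peaks at 1262 CPM in the portion with neither panel and FYN one step earlier at 3156 CPM. Right, MBP climbs at each step from 365 to 14939.8 CPM.

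The portion with neither panel was then compared with the precursor-panel portion, a comparison added after the data were seen. Only libraries 3 and 4 had 50 nuclei in both. Of 9286 genes, 475 (5.12%) were higher in the portion with neither panel and 436 (4.7%) lower (9.81% in all). Without doublets the lower genes numbered 710, and with nuclei of 2000 to 8000 UMIs 752. Stage genes were higher in 6 of 14 (RRAS2, CEMIP2, ITPR2, PLEKHA1, MPZL1 and TMEM163) and lower in 2 (SNX22 and BMP4). RRAS2 was 6.22-fold higher (5.81 to 6.67), CEMIP2 5.97-fold and ITPR2 3.43-fold. The TMEM163 call (2.07-fold) ended with TMM, without library 1 and in libraries 1 to 4 alone, at log2 ratios of 0.98 to 1.00. Myelin genes were higher in 6 of 19 and none lower, with ENPP2 5.27-fold and MBP 3.71-fold higher. Precursor surface genes were lower in 9 of 19 and higher in 1, FGFR2 (3.97-fold). LHFPL3 was 6.32-fold lower (777 against 4913 CPM) and PTPRZ1 4.47-fold lower. Among receptors, LPAR1 was 4.39-fold higher and the AMPA subunits GRIA4, GRIA3 and GRIA2 were 3.93, 3.34 and 3.24-fold lower. Of 24 transcription factors, 4 were higher (ZNF536 4.56-fold, CREB5 3.35-fold and RXRG 3.58-fold among them) and 4 lower (PRRX1 8.83-fold, NKX2-2 3.26-fold and OLIG2 3.19-fold among them). The RXRG call ended under 3 settings, without doublets among them (log2 ratios of 1.52 to 1.84). SEMA4D was 2.43-fold higher, and NTN1 6.39-fold and NTNG1 5.99-fold lower. Over all genes, MKX (11.8-fold), ARMC4 (10.9-fold), MUSK (9.80-fold), CMAH (8.90-fold) and PRIMA1 (8.83-fold) were the most raised. COL14A1 (21.9-fold) and COL5A3 (13.1-fold) were the most lowered, with 4.04 and 2.02 CPM left.

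The class was also divided by GPR17, which is a gene of the rule. A GPR17 UMI was seen in 846 nuclei and not in 1084, with median depths of 3967.5 and 3920.5 UMIs, and since GPR17 is sparse its absence in a nucleus does not show that the gene was off. All 1084 nuclei without it had BCAS1, ENPP6 and TNS3, because the rule needs 3 genes, while 301 nuclei with it lacked ENPP6. The arms therefore differ by how they were chosen, and the values below are a description. Of 9154 genes, 10 (0.109%) were higher where GPR17 was seen and 122 (1.33%) lower (1.44% in all). With equal library weights they numbered 44 and 128, and the 10 higher became 21, 28, 28, 18 and 17 without library 1, 3, 4, 7 or 8. Stage genes were lower in 3 of 14 and myelin genes in 3 of 19, and none was higher. MBP was 2.09-fold lower where it was seen (3229 against 6760.4 CPM), ANLN 4.08-fold, CMAH 3.36-fold, CEMIP2 2.77-fold, RRAS2 2.69-fold and HAPLN2 2.59-fold lower. ITPR2, ENPP2, FGFR2, GSN and LPAR1 were also lower. COL15A1 (2.26-fold), COL4A1 (2.13-fold) and IGSF9B (2.11-fold) were higher. FYN (1.20-fold) and TCF7L2 (0.755) were within 2-fold. When the nuclei with GPR17 were limited to the 530 that also had the other 3 genes, 8 genes were higher and 162 lower, of which 3 and 98 were shared with the counts above. The calls for MBP, ITPR2, FGFR2, COL4A1 and IGSF9B then ended at log2 ratios of -0.98, -0.89, -0.999, 0.98 and 0.97. This limit was set after the data were seen. GPR17 itself stood at 168 CPM in the precursor-panel portion, 49.0 CPM with neither panel and 58.4 CPM with the mature panel.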

How the data were processed

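The authors deposited raw UMI counts in whole numbers, made with Cell Ranger 3.1.0 per the file headers. CASAVA 1.8 and Seurat are further named in the submitters' processing notes. No source used here gives a genome build. The matrix held 21748 genes and 59749 barcodes. Nuclei were kept from 500 UMIs and 300 genes, which left 58220. Genes were named by the files, with a symbol table for 752 IDs. Neighbouring genes were read from the RefSeq order of assembly T2T-MMU8v2.0. Neighbour classes needed at least 3 panel genes, a panel sum of at least 10 per 10000, and no pass of the rule or of another panel (precursors could pass the cycling panel). PDGFRA, MAG and MOBP were not analysed here, and some list members are not reported here.

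Counts were summed per class. No count model was fitted, because the matrix is 1 sample. Doublets were scored per library against simulated pairs (50 neighbours) and kept. Genes named are the panel and stage genes, the gene of highest CPM in each list, its called genes of largest fold (3 per direction), and the 10 largest overall at 20 CPM or more. Other list members that are named were chosen after their values were seen. Members and lists were chosen with earlier results of these data known. The calling step was tested on simulated data. Alternatives included TMM scaling (edgeR 4.0.16), other limits, thinning, and leaving out doublets or libraries. Tools were Python 3.11.15, numpy 2.4.6, scipy 1.17.1, pandas 2.3.3, scikit-learn 1.9.0 and R 4.3.3.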

Additional observations from a re-analysis of the deposited data

Results flagged for a closer look

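MYRF in newly formed oligodendrocytes stood apart in 1 library. It was at 138 CPM in library 7 (41 nuclei), against a median of 263 CPM over the 8 libraries and 216 to 282 CPM in the other libraries. The gap to the next library was 0.541 of the whole range, where 0.526 is the limit for 8 values. Of 28 values examined in this way it was the only one past the limit, and chance passes about 1 in 20. No cause was tested.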

How the results depend on the processing

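The share of newly formed nuclei was 2.61% with marker sums of at least 20, 0.910% with all 4 markers, 3.00% without nuclei that pass another lineage's panel, 2.15% after thinning, 4.94% in libraries 1 to 4 and 2.51 to 3.60% with 1 library left out.

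Counts of called genes kept within 1.5 times of the reported count under the settings not named here. Genes higher than in precursors numbered 276 with all 4 markers and 737 without nuclei that pass the precursor or mature panel (450 to 482 with 1 library left out). Genes lower numbered 404 with libraries weighted equally, 1343 and 474 when measured at 1 and at 50 CPM, and 576 with neighbour panel sums of 20 (763 to 965). Against mature cells, 534 were higher when measured at 50 CPM (973 to 1161) and 878 lower with all 4 markers (567 to 623). Above both classes, 275 genes were found without nuclei that pass a panel (151 to 157). Below both there were 39 with sums of 20, 49 with all 4 markers, 10 without doublets, 12 without other-lineage nuclei, 58 without panel-passing nuclei, 2 with TMM, 7 with 5% free RNA removed, 28 and 0 at 1 and 50 CPM, 8 with neighbour sums of 20, 9 in libraries 1 to 4, 7 with LHFPL3 and TNR required and 12 at 2000 to 8000 UMIs (3 to 6). With GPR17 seen, genes higher numbered 18 with sums of 20, 28 without doublets, 29 without other-lineage nuclei, 44 with equal weights, 20 with free RNA removed, 87 and 1 at 1 and 50 CPM, 27 in libraries 1 to 4 and 28 at 2000 to 8000 UMIs (13 to 28). Genes lower there numbered 210 and 77 at 1 and 50 CPM (121 to 144). For the portion with neither panel against the precursor-panel portion, 938 and 266 were higher at 1 and 50 CPM (446 to 524), and 882 and 228 lower, with 710 without doublets and 752 at 2000 to 8000 UMIs (440 to 498).

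Log2 ratios that changed sign were those of NKX2-2 (-0.061), PRRX1 (-1.53) and SEMA5A (-0.0284) against the higher class without panel-passing nuclei, and OVCH1 (0.17) against the lower class with neighbour sums of 20. Values of single named genes were counted by comparison and setting, and 6605 were unchanged. These kept their call and its direction, or stayed without a call within counting error. Of the others, 312 without a call moved by more than counting error, 214 lost a call, 64 gained one and 4 called values changed sign. The settings of libraries 1 to 4, of 2000 to 8000 UMIs of LHFPL3 and TNR, and of equal markers in both GPR17 arms were chosen after seeing the data. The causes were not tested, beyond the fewer nuclei or genes that a setting leaves. TMM moved the median of all genes against precursors by 0.16, and no list's median changed sign against precursors. No paired analysis was possible because no source ties a library to a sample. The comparison of sevoflurane with control and its replicate block were not run for that reason. Libraries 5 to 8 held 39 to 48 newly formed nuclei each, which limits their values.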
